A study of Mus musculus with 25 samples.

Results

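The genes described here are 40 mitosis genes, chosen as a list of symbols for what their proteins do in cell division, out of 23940 gene symbols in the deposited expression table. They hold mitotic cyclins and kinases, the spindle checkpoint, the anaphase-promoting complex, the chromosomal passenger complex, kinetochore and spindle proteins, cytokinesis proteins and the regulators that switch these genes on. All 40 were in the table, and all 40 passed the filter on low expression (a mean of at least 1 FPKM) in every fit. RNA had been sequenced from 25 tumors of YUMM1.7, a mouse melanoma line with mutant Braf, grown in C57BL/6 mice.

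The tumors fall into 7 groups; the labels mark 7 tumors as batch 2, and the other 18 are called batch 1 here. Batch 1 holds untreated tumors (Veh, n = 4), tumors that were regressing under a BRAF inhibitor (Reg, n = 4), residual tumors that the labels also call cytostatic, still on the inhibitor (Res, n = 5), and tumors resistant to it (Prog, n = 5). Batch 2 holds further resistant tumors (Prog_b2, n = 3), residual tumors given the inhibitor and anti-PD-L2, an antibody (aPDL2_small, n = 2), and tumors resistant to that combination (aPDL2_large, n = 2). PD-L2 is a ligand of the T cell checkpoint receptor PD-1. Batch 2 has no untreated tumor and no residual tumor on the inhibitor alone. All tumors came from 1 cell line; the labels do not name the inhibitor, its dose, the days on treatment or the age of the mice, nor say whether the tumors of a group came from separate mice. The p-values therefore measure the spread between these tumors.

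At mitosis, Cdk1 bound to cyclin B drives chromosome condensation and spindle assembly, the checkpoint holds anaphase until every kinetochore is attached, and the anaphase-promoting complex with Cdc20 then marks cyclin B and securin for destruction. The genes of this machinery are transcribed late in the cell cycle. In resting cells the DREAM complex represses many of them, through a short promoter element called the cell cycle genes homology region (CHR), and in dividing cells B-Myb (Mybl2) and Foxm1 activate them, often together with NF-Y bound to CCAAT boxes. Melanomas with mutant BRAF depend on MAPK signalling to enter the cycle, and inhibitors of BRAF arrest many of their cells before replication.

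Promoter windows were looked at because the 40 genes moved together in the comparisons that follow. RefSeq windows on GRCm38.p6, from 250 bases before to 50 bases after the annotated start, were matched for 32 of the 40 genes. The CHR word TTTGAA, on either strand, lay within 50 bases of the start in 22 of these 32 windows (68.8%), against 4.92% of 27025 windows, 1 per gene. CCAAT on either strand lay anywhere in 25 of the 32 windows (78.1%), against 37.9% of all. Both features stood together in 20 windows (62.5%), against 2.11%. The related word TTCGAA was in 3 of the 32 (9.38%, against 1.57%). Words of the kind that E2F factors bind were searched on both strands as the letters TTCCCGC or, as a second form, TTCGCGC. Further forms were TTGGCGC, whose complement can share letters with CCAAT, and then TTGCCGC. At least 1 of these words was in 5 windows (15.6%, against 9.69%). A match is a stretch of letters, not a shown binding site. The 6 windows with TTTGAA near the start and the highest Veh level, and the window of Birc5, which has neither word, are printed 5′ to 3′ along the gene's strand. Capitals mark TTTGAA or its complement TTCAAA, and CCAAT or its complement ATTGG.

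Ube2c (chr2:164769679-164769978, plus strand): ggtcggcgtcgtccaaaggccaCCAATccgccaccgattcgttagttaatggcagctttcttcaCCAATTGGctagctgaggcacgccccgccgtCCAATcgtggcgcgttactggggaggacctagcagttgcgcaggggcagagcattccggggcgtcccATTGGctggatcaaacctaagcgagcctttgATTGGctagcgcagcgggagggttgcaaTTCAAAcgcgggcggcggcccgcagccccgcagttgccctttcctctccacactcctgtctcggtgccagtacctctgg

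Top2a (chr11:99024140-99024439, minus strand): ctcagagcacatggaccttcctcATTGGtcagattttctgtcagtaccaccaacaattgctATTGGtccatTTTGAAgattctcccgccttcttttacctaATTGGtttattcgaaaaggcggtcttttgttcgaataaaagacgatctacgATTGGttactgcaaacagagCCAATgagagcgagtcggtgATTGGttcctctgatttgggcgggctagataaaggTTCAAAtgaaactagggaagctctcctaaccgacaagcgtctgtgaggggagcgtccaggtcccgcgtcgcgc

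Cdc20 (chr4:118437294-118437593, minus strand): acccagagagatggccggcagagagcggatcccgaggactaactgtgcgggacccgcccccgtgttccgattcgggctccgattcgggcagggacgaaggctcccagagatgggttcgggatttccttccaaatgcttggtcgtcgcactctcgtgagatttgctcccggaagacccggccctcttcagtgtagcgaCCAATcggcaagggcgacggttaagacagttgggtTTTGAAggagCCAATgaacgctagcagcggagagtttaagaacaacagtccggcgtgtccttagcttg

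Cenpa (chr5:30666636-30666935, plus strand): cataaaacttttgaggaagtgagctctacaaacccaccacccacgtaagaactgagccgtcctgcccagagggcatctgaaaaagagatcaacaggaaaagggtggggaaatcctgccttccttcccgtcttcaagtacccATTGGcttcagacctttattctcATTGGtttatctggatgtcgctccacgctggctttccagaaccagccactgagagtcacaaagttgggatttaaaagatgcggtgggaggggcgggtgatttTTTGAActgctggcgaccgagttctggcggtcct

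Ccnb2 (chr9:70421505-70421804, minus strand): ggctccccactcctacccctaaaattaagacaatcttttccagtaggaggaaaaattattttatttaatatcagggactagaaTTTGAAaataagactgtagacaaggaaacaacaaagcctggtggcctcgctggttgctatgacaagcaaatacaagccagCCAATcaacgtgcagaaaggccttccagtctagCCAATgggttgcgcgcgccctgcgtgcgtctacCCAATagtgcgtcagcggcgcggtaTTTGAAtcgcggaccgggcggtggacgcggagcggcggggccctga

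Racgap1 (chr15:99651607-99651906, minus strand): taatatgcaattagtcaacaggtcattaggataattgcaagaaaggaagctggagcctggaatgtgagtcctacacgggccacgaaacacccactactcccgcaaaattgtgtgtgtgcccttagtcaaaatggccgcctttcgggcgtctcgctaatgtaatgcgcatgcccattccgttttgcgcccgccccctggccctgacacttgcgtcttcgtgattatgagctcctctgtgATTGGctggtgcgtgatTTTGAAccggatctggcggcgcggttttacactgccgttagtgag

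Birc5 (chr11:117848987-117849286, plus strand): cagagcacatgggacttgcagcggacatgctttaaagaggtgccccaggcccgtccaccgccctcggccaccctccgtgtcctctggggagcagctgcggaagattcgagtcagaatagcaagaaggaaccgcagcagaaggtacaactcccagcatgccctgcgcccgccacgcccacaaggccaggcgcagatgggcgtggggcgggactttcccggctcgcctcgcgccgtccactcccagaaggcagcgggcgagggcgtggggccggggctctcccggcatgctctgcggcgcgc

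The CHR word began 29 bases before the start in Ube2c and 23 bases before it in Top2a, both on the opposite strand, and 18 bases before it in Cdc20. It began at base 5 after the start in Ccnb2, base 6 in Racgap1 and base 17 in Cenpa. The windows of Top2a and Ccnb2 hold a second TTTGAA farther upstream. None of these differences in the letters was tested against expression.

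Values are FPKM, which scale fragments by transcript length and library size, so that levels can be set side by side between genes. The column sums ranged from 496435 to 2065750 FPKM, and 11081 to 12262 genes per tumor were at 1 FPKM or more. No fragment counts were used, and the depth of each library is unknown. At least 50.3% of the values had 7 digits in each of 9 tumors of batch 1 (Prog 2, 4 and 5, Res 1, 3 and 5, and Veh 1, 2 and 4), a form that averaging of paired values can give, against at most 0.0087% in the other 16. Among lineage markers, Dct, Tyr, Tyrp1, Mlana and Pmel, which define pigmented melanocytes, were at most at 0.87 FPKM in any tumor. Mitf, of the same lineage, was between 1.64 and 13.9 FPKM. Sox10, also of it, was at 0.233 and 140 FPKM in aPDL2_small 1 and 2 and at 188 and 0.713 in aPDL2_large 1 and 2. In all other tumors Sox10 was at 10.7 FPKM or less. Krt14, a skin keratin, reached 592 FPKM in Veh 1, 98.2 FPKM in Veh 3 and 158 FPKM in Res 1. Prog_b2 3 stood apart from the other Prog_b2 tumors in every one of the 40 genes. Counts of called genes in Prog_b2 against Prog and Veh are given with and without it. The libraries were unstranded, so reads of genes that overlap on opposite strands cannot be told apart.

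The first comparison asked how tumors held at a residual, cytostatic stage differed from untreated ones, and in it all 40 mitosis genes fell. The median gene was at 13.9% of its Veh mean, from 10.1% for Bub1 to 29.99% for Incenp. On the log2(FPKM + 1) scale the changes ran from -2.99 for Ccnb1 to -1.65 for Incenp, with a median of -2.44. A gene is called here when its limma p, after Benjamini-Hochberg adjustment across the 12210 genes tested, is below 0.05. Of all genes, 25.1% were called lower and 20.4% higher in this comparison. The Res and Veh tumors did not overlap for any of the 40 genes, which held in this direction for 18.8% of all genes. This scale understates the change of genes with few FPKM: Res 2 to Res 5 had between 1 and 5 of the 40 genes below 1 FPKM, while no tumor outside Res had any.

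**Figure D1:**
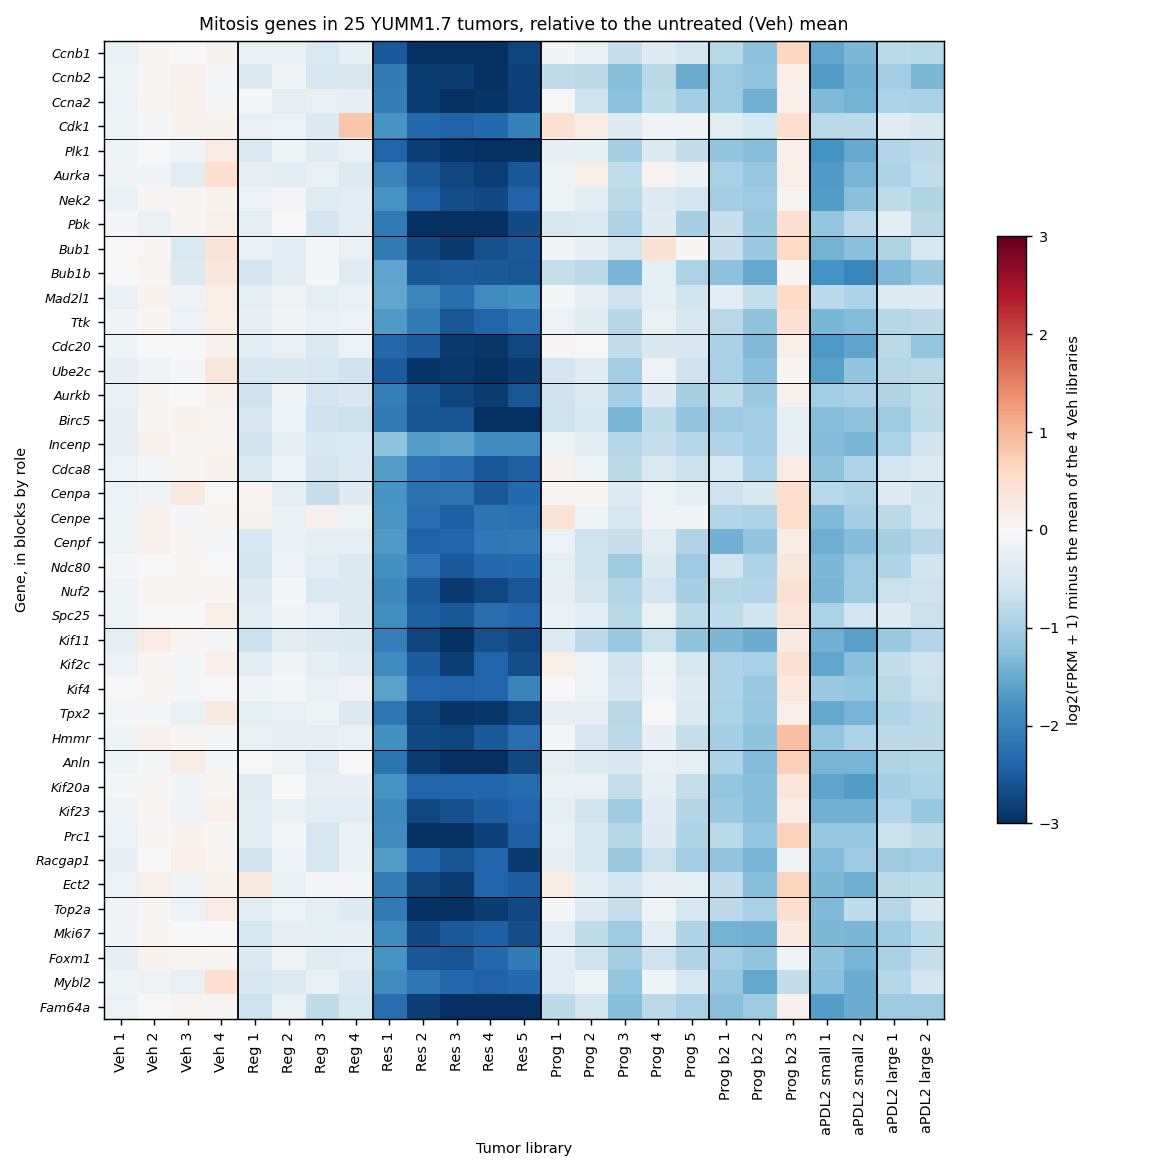
Level of each of the 40 mitosis genes (rows, by role) in each of the 25 tumors (columns, by group) as the difference in log2(FPKM + 1) from the gene's mean in the 4 Veh tumors, with values past -3 or 3 drawn at the ends of the scale (blue, below Veh; red, above it). The 5 Res columns are the darkest blue in all rows but those of Bub1b and Incenp, where the small tumors lie below Res 1, and Prog_b2 3 is above all Veh tumors for 28 genes.

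Among the cyclins, Ccnb1 encodes cyclin B1, the activator of Cdk1 at mitotic entry. Its level was 35.8, 43.8, 41.4 and 44.1 FPKM in Veh 1 to 4, 35.2, 34.9, 29.6 and 34.1 in Reg 1 to 4, 6.35, 4.14, 3.16, 3.27 and 5.26 in Res 1 to 5 and 38.6, 35.1, 25.2, 30.98 and 27.9 in Prog 1 to 5. Every Res tumor was far below every other tumor of batch 1, and 1 Prog tumor reached the range of Veh. The fall in Res was -2.99 ± 0.16 (log2, ± SE; adjusted p = 2.68e-09). The change in Prog was -0.39 ± 0.16 (95% interval -0.72 to -0.056, adjusted p = 0.0524), just short of a call. Cdk1, the kinase itself, was at 33.99, 35.9, 40.5 and 40.3 FPKM in Veh, 31.97, 33.3, 27.6 and 67.2 in Reg, 10.3, 6.68, 6.18, 6.60 and 8.42 in Res and 50.96, 44.1, 28.4, 34.2 and 34.1 in Prog. Reg 4, Prog 1 and Prog 2 stood above all Veh tumors, and Res was again below all others of batch 1. Cdk1 fell by 2.18 ± 0.22 in Res (adjusted p = 1.25e-06), and its change in Prog was -0.00053 ± 0.22, with an interval from -0.47 to 0.47. Ccnb2, a second B-type cyclin, went from 40.97, 46.6, 49.9 and 44.4 FPKM in Veh to 9.81, 5.42, 5.39, 4.39 and 5.68 in Res and 26.3, 26.1, 18.2, 24.8 and 15.4 in Prog. It had the largest fall of the 40 genes in Prog, at -1.03 ± 0.19 (adjusted p = 4.58e-04).

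Plk1, a kinase needed for centrosome maturation and mitotic exit, was at 36.2, 39.97, 37.8 and 47.6 FPKM in Veh, 28.96, 36.5, 31.1 and 34.01 in Reg, 6.78, 4.77, 4.36, 3.35 and 3.97 in Res and 33.8, 32.8, 19.6, 29.3 and 23.7 in Prog. All Prog tumors were below all Veh tumors, and all Res tumors lay lower still. The falls were -2.89 ± 0.17 in Res (adjusted p = 4.84e-09) and -0.54 ± 0.17 in Prog (adjusted p = 0.0147). Aurka, the kinase of the spindle poles, was at 14.1% of Veh in Res and 88.6% in Prog, where its change of -0.17 ± 0.20 was not called (interval -0.58 to 0.25). Nek2, which separates the centrosomes, and Pbk, a kinase active in mitosis, stood at 13.4% and 12.1% of Veh in Res.

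For the spindle checkpoint, Bub1b (BubR1, a subunit of the complex that blocks Cdc20) was at 32.2, 34.2, 23.5 and 40.8 FPKM in Veh, 21.6, 25.2, 30.6 and 24.8 in Reg, 10.1, 4.66, 4.88, 4.77 and 4.59 in Res and 19.1, 18.3, 11.8, 26.5 and 16.2 in Prog. The other Res tumors lay close together well below Res 1, and 1 Prog tumor reached the range of Veh. The falls of Bub1b were -2.34 ± 0.23 in Res (adjusted p = 7.12e-07) and -0.81 ± 0.23 in Prog (adjusted p = 0.00812). Bub1, a checkpoint kinase, was not called in Prog: its level there was 11.8 ± 3.30 FPKM (SD, n = 5) against 12.4 ± 3.17 in Veh (n = 4), a change of -0.077 ± 0.19 with an interval from -0.48 to 0.33. In Res, Bub1 was at 1.25 ± 0.463 FPKM (n = 5). Mad2l1, which is handed to Cdc20 at unattached kinetochores, was at 23.97% of Veh in Res and 76.8% in Prog, and Ttk, the kinase at the top of the checkpoint, at 13.1% and 72.3%.

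On the side of anaphase, Cdc20 activates the anaphase-promoting complex, and Ube2c is the ubiquitin-conjugating enzyme that works with it. Cdc20 was at 47.8, 53.4, 52.6 and 57.7 FPKM in Veh, 41.5, 44.7, 37.96 and 46.5 in Reg, 9.53, 8.59, 6.38, 6.10 and 7.16 in Res and 54.1, 53.6, 31.2, 37.4 and 37.03 in Prog. Ube2c had the highest level of the 40 genes in Veh, at 125, 138, 144 and 191 FPKM, with 104, 106, 103 and 95.2 in Reg, 25.3, 18.2, 19.1, 11.8 and 19.3 in Res and 98.9, 114, 70.7, 132 and 95.7 in Prog. Both were lowest in Res without overlap, and Prog 1 and Prog 2 lay within the range of Veh for Cdc20 and Prog 4 for Ube2c. Their falls in Res were -2.67 ± 0.15 and -2.95 ± 0.19 (adjusted p = 4.85e-09 and 7.37e-09). In Prog, Ube2c fell by 0.56 ± 0.19 (adjusted p = 0.0233), and the change of Cdc20, -0.33 ± 0.15, was not called (adjusted p = 0.0872).

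The chromosomal passenger complex corrects faulty attachments and later guides cytokinesis; its kinase is Aurkb, with Incenp as scaffold and Birc5 (survivin) and Cdca8 (borealin) as targeting subunits. Aurkb was at 21.9, 26.7, 25.2 and 27.9 FPKM in Veh, 16.03, 23.5, 16.6 and 17.8 in Reg, 5.31, 3.50, 2.90, 2.66 and 3.47 in Res and 16.2, 18.4, 11.9, 19.3 and 12.2 in Prog. Incenp was at 25.2, 32.98, 31.6 and 31.3 FPKM in Veh, 19.7, 24.8, 21.2 and 21.6 in Reg, 12.4, 8.83, 9.15, 7.57 and 7.41 in Res and 27.5, 23.8, 16.2, 18.3 and 16.3 in Prog. Aurkb was below Veh in all Prog tumors, while Prog 1 overlapped with Veh for Incenp. Aurkb fell by 2.55 ± 0.17 in Res and by 0.69 ± 0.17 in Prog (adjusted p = 1.10e-08 and 0.00372). Incenp had the smallest fall of the 40 in Res, at -1.65 ± 0.16 (adjusted p = 7.18e-07), and fell in Prog by 0.57 ± 0.16 (adjusted p = 0.00862). Birc5 was at 14.6% of Veh in Res and 54.4% in Prog, and Cdca8 at 19.1% and 77.1%.

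Of the kinetochore genes, Cenpe encodes a kinesin that brings chromosomes to the metaphase plate. It was at 9.07, 11.3, 9.90 and 10.9 FPKM in Veh, 11.1, 8.87, 11.4 and 9.13 in Reg, 2.34, 1.30, 1.06, 1.45 and 1.39 in Res and 13.9, 9.26, 6.86, 9.49 and 9.69 in Prog. Its fall in Res was -2.19 ± 0.16 (adjusted p = 2.45e-08), and its change in Prog, -0.086 ± 0.16 (interval -0.42 to 0.25), was not called. Cenpa, the histone H3 variant that marks centromeres, was at 20.01% of Veh in Res and 90.4% in Prog, without a call in Prog (interval -0.48 to 0.20). The subunits of the Ndc80 complex, which grips microtubules, moved alongside in Res: Ndc80 stood at 15.3% of Veh, Nuf2 at 13.5% and Spc25 at 16.9%. In Prog they were at 60.1%, 62.9% and 71.6%, and all 3 were called lower there, as was Cenpf, a large kinetochore protein, at 65.4%.

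Kif11 (Eg5), the motor that pushes the spindle poles apart, was at 15.1, 22.4, 19.99 and 18.2 FPKM in Veh, 11.5, 14.8, 13.8 and 13.7 in Reg, 3.74, 1.92, 1.54, 2.18 and 1.90 in Res and 13.9, 10.5, 8.18, 11.3 and 7.61 in Prog. It fell in Res by 2.63 ± 0.18 and in Prog by 0.83 ± 0.18 (adjusted p = 1.41e-08 and 0.00158). Tpx2, the activator of Aurka on the spindle, Kif2c, which depolymerises microtubules at kinetochores, and Kif4, a motor on chromosome arms, stood at 12.9%, 13.6% and 14.9% of Veh in Res. In Prog these were at 78.8%, 83.9% and 82.9%, none called. Hmmr, which binds spindle microtubules, was at 12.6% of Veh in Res and 71.97% in Prog.

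For cytokinesis, Anln (anillin, a scaffold of the contractile ring) was at 38.8, 40.6, 49.4 and 41.5 FPKM in Veh, 41.8, 39.6, 33.2 and 43 in Reg, 8.46, 5.02, 2.76, 4.45 and 5.58 in Res and 34.8, 31.7, 29.9, 37.1 and 34.2 in Prog. It fell in Res by 2.86 ± 0.18 (adjusted p = 7.37e-09), and the change in Prog, -0.33 ± 0.18, was not called. Kif23 and Racgap1, which together form centralspindlin, stood at 14.4% and 17.9% of Veh in Res, and Prc1, which bundles midzone microtubules, at 14.7%. All 3 were called lower in Prog as well, at 63.7%, 60.9% and 66.8% of Veh. Ect2, the exchange factor that turns on RhoA at the cleavage plane, was at 12.2% of Veh in Res and 84.3% in Prog, where it was not called.

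Top2a, the topoisomerase that untangles sister chromatids, was at 63.1, 70.2, 60.2 and 81.3 FPKM in Veh, 54.6, 60.6, 56.4 and 52.4 in Reg, 15.1, 6.95, 5.75, 8.56 and 9.52 in Res and 65.2, 52.2, 41.4, 62.2 and 47.4 in Prog. Mki67, the proliferation marker Ki-67 that coats mitotic chromosomes, was at 26, 28.4, 27.7 and 27.6 FPKM in Veh, 18.6, 23.1, 22.1 and 22.8 in Reg, 6.82, 3.34, 3.97, 4.20 and 3.47 in Res and 21.8, 15.8, 12.4, 21.4 and 14.1 in Prog. Both were lowest in Res, without overlap. In Res the changes were -2.83 ± 0.20 for Top2a and -2.44 ± 0.17 for Mki67 (adjusted p = 1.60e-08 and 1.74e-08). In Prog, Mki67 fell by 0.68 ± 0.17 (adjusted p = 0.00430), and Top2a, at -0.36 ± 0.20 (adjusted p = 0.140), was not called.

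Both transcriptional activators of this gene set fell in Res themselves. Foxm1 was at 17.8, 23, 22.7 and 22.3 FPKM in Veh, 15.7, 19.9, 16.4 and 16.8 in Reg, 5.45, 2.84, 2.73, 3.36 and 4.25 in Res and 16.7, 13.5, 10.1, 13.6 and 10.95 in Prog. Mybl2 was at 8.58, 8.49, 7.92 and 13.8 FPKM in Veh, 6.44, 6.84, 7.95 and 6.63 in Reg, 1.81, 1.34, 1.04, 0.949 and 1.09 in Res and 7.41, 8.63, 3.72, 8.61 and 6.38 in Prog. Their falls in Res were -2.27 ± 0.16 and -2.23 ± 0.19 (adjusted p = 1.86e-08 and 2.07e-07). In Prog, Foxm1 fell by 0.70 ± 0.16 (adjusted p = 0.00242), and the change of Mybl2, -0.44 ± 0.19, was not called (adjusted p = 0.0725). Fam64a (Pimreg), a mitotic regulator, was at 10.7% of Veh in Res and 53.6% in Prog.

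**Figure D2:**
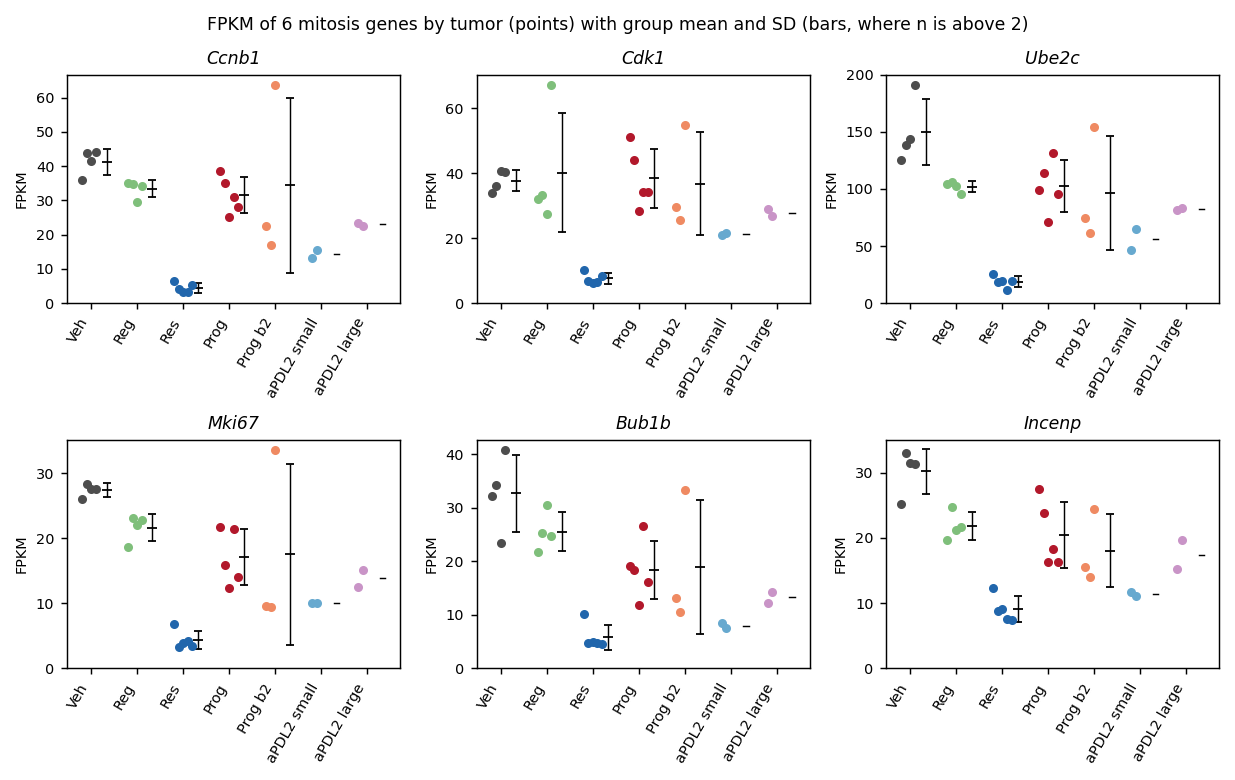
FPKM of 6 mitosis genes in single tumors (points) by group, with the group mean beside them and, where a group has more than 2 tumors, bars of 1 SD. The Res tumors lie lowest in all panels, except that Res 1 is above the small tumors for Bub1b and Incenp, and Prog_b2 3 is above the other Prog_b2 tumors.

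Markers of several other cell types were higher in the residual tumors. The summed level of 11 skeletal muscle genes ranged from 6.27 to 119 FPKM in Veh and from 83.7 to 1165 in Res, and that of 15 macrophage genes from 396 to 2109 in Veh and from 2438 to 5409 in Res. Summed fibroblast genes (10) ranged from 2416 to 3022 FPKM in Veh and from 5461 to 8503 in Res. Of all genes, 20.4% were called higher in Res. Of those tested, 10 of 10 muscle genes, 14 of 15 of macrophages, 7 of 10 of fibroblasts and 6 of 7 of red cells were called higher. So were 9 of 10 each of neutrophils and endothelium, but only 1 of 9 of T cells. In the melanocyte lineage Mitf, Sox10, Kit and Ednrb, all that passed the filter, were called higher. No keratinocyte gene tested was called. In bulk tumors, fewer dividing cells and less RNA of these genes per cell cannot be told apart, and the part of other cell types in the fall was not tested. Of the Res tumors, Res 1 had the highest level of all 40 mitosis genes, between 1.35 and 2.24 times the mean of the other 4 (median 1.81). Its muscle, red cell and endothelial sums were the lowest of Res, at 83.7, 431 and 177 FPKM, and its keratinocyte sum the highest, at 693. The lowest macrophage, T cell and melanocyte lineage sums were in Res 5. For fibroblast genes the lowest sum was in Res 2, and for neutrophil genes in Res 4. Without the 3 tumors with high keratin, Res 1 among them, all 40 genes were called lower in Res. That fit called 4106 genes in either direction.

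Regressing tumors, also on the inhibitor, lay slightly below Veh in mean level. None of the 40 was called lower or higher in Reg against Veh by limma, and 8 had an unadjusted p below 0.05, as had 1364 of all 12210 genes; 0.0164% of all genes were called lower. Every one of the 40 changes was below zero, with a median of -0.30, from -0.54 ± 0.19 for Fam64a to -0.0013 ± 0.23 for Cdk1. The median gene was at 80.8% of its Veh mean. All Reg tumors lay below all Veh tumors for 13 of the 40 genes, against 3.53% of all genes. For Ube2c the change was -0.53 ± 0.20 with an interval from -0.95 to -0.11 (adjusted p = 0.406), and for Mki67 it was -0.33 ± 0.18 (interval -0.71 to 0.051, adjusted p = 0.484). Against Reg, all 40 genes were lower in Res (median -2.17), in a comparison that called 22.5% of all genes lower.

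Resistant tumors of batch 1 stood well above residual tumors and partly below untreated ones. Against Res, all 40 genes rose, with a median of 1.92, from 1.08 for Incenp to 2.60 for Ccnb1, where 4879 of all 12210 genes (40%) were called higher. Prog and Res did not overlap for any of the 40, against 29.9% of all genes in that direction. Against Veh, 25 of the 40 fell, with a median over all 40 of -0.47, and none was called higher; 21.1% of all genes were called lower and 25.2% higher. All Prog tumors were below all Veh tumors for 18 of the 40 genes, against 17.9% of all genes. The 15 not called were Ccnb1 and Cdk1, the kinases Aurka and Bub1, Cdc20, Cdca8, Cenpa and Cenpe, Kif2c, Kif4 and Tpx2, Anln and Ect2, Top2a and Mybl2. By role, all 3 of Ndc80, Nuf2 and Spc25 and all but 1 of the chromosomal passenger genes were called, and of the motors and microtubule proteins Kif11 and Hmmr. The count of 25 went down to 16 without Veh 4 or without Prog 3, to 17 without Prog 5, and to 14 when all 25 libraries shared 1 fit.

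**Figure D3:**
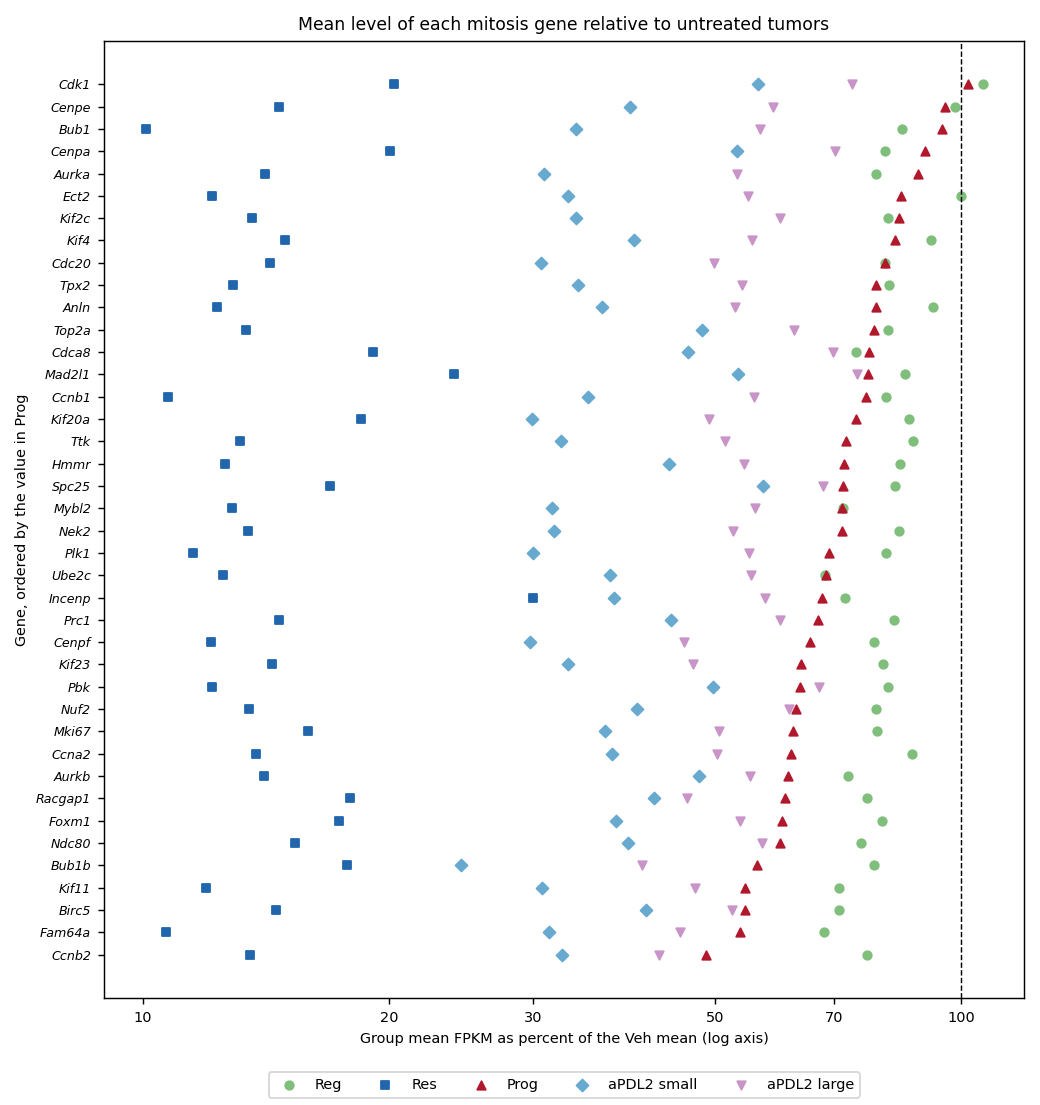
Mean FPKM of each of the 40 mitosis genes in Reg, Res, Prog and both anti-PD-L2 groups as a percentage of its mean in Veh (log axis, dashed line at 100), with genes ordered by the value in Prog. The Res points lie between 10.1% and 29.99%, the Reg points between 68.03% and 106.2%, and the Prog points between 48.8% and 101.8%.

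The Prog tumors differed among themselves. Over the 40 genes, the median level relative to the Veh mean was 86.1% in Prog 1, 76.2% in Prog 2, 54.0% in Prog 3, 77.9% in Prog 4 and 59.2% in Prog 5. Prog 3 was the lowest of the group for 33 of the 40 genes and Prog 1 the highest for 28. The highest Prog tumor was a median of 1.76 times the lowest, against 1.27 in Veh, 1.28 in Reg and 2.20 in Res. Against Reg, 2 of the 40 genes were lower in Prog, Ccnb2 (-0.65 ± 0.19, adjusted p = 0.00951) and Ccna2, cyclin A2 (-0.54 ± 0.21, adjusted p = 0.0461), where 24.1% of all genes were called lower. That count was from 1 to 7 as single tumors were left out, 7 without Prog 1, and 18 with library weights. The shares of all genes called under those settings are not given here. The 3 comparisons of Reg, Res and Prog with Veh share the Veh tumors. Summed macrophage genes ranged from 370 to 573 FPKM in Prog, and summed muscle genes from 3.78 to 48.2; their part in the changes was not tested.

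The resistant tumors of batch 2 were split by a single library. Relative to the Veh mean, the median of the 40 genes was 49.9% in Prog_b2 1, 41.8% in Prog_b2 2 and 122% in Prog_b2 3. Hmmr was at 5.44, 4.64 and 23.2 FPKM, Ccnb1 at 22.6, 16.9 and 63.7, Ube2c at 74.7, 61.7 and 154 and Mki67 at 9.60, 9.42 and 33.6 in Prog_b2 1, 2 and 3. Prog_b2 3 was the highest of the 3 for all 40 genes, at 1.65 (Incenp) to 4.61 (Hmmr) times the mean of the others, with a median of 2.63. It lay above all Veh tumors for 28 genes, within their range for 9 and below it for 3. Its summed muscle, macrophage and T cell genes were the lowest of Prog_b2, at 6.90, 638 and 1.06 FPKM. The group medians were 7.82, 1408 and 3.69. Neutrophil, endothelial and melanocyte lineage sums were also lowest in Prog_b2 3. Fibroblast and red cell sums were lowest in Prog_b2 1, and keratinocyte sums in Prog_b2 2. The part of these cells was not tested.

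Against Prog of batch 1, none of the 40 genes was called in Prog_b2 by limma, and 1 had an unadjusted p below 0.05; 6.06% of all genes were called lower. Without Prog_b2 3, 18 of the 40 were called lower. The 6.06% is from the fit with that tumor, and the share of all genes without it is not given here. Against Veh, 10 of the 40 were lower in Prog_b2, where 10.7% of all genes were called lower: Mybl2, Foxm1, Plk1, Nek2, Bub1b, Birc5, Incenp, Cenpf, Racgap1 and Mki67. Mybl2 showed the lowest level relative to Veh, at 3.80, 2.60 and 5.29 FPKM in Prog_b2 1 to 3, a change of -1.13 ± 0.23 (adjusted p = 0.00253). That count was 38 without Prog_b2 3, 1 without either of the others, 4 without Veh 2 or Veh 4, and 5 without Veh 1 or Veh 3. The shares of all genes called in those fits are not given here. The Veh tumors are all in batch 1, so treatment and batch cannot be told apart in this comparison.

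With the PD-L2 antibody, mean levels of the mitosis genes lay below those of resistant (large) tumors in residual (small) ones, by a narrower margin than between Prog and Res. Ccnb1 was at 13.3 and 15.6 FPKM in the small tumors and 23.5 and 22.6 in the large ones. Cdk1 was at 21.1 and 21.4 in small and 28.8 and 26.7 in large tumors, and Ube2c at 46.95 and 64.6 in small and 81.9 and 83.7 in large tumors. The small tumors were lower for each of these, without overlap. Plk1 was at 10.8 and 13.4 FPKM in small and 21.4 and 23.01 in large tumors. For Top2a the values were 26.6 and 39.6 in small and 37.3 and 48.4 in large tumors, which overlap. Mki67 was at 10.1 and 10.05 in small and 12.6 and 15.2 in large tumors, and Foxm1 at 8.68 and 7.55 in small and 10.4 and 12.6 in large ones.

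The mean of the small tumors was below that of the large ones for all 40 genes, and all small tumors were below all large ones for 36 of 40, against 27.1% of all genes; the exceptions were Pbk, Spc25, Racgap1 and Top2a. No gene was called by limma, of the 40 or of all 11913 tested in batch 2, and none of the 40 had an unadjusted p below 0.05. The median change was -0.49, and for Ccnb1 the interval was -2.01 to 0.72, which spans zero. Against Prog_b2, the medians were -0.71 for small and -0.23 for large tumors, again with none of the 40 at an unadjusted p below 0.05. Both medians include Prog_b2 3. By single tumor, the median gene was at 49.9%, 41.8% and 122% of its Veh mean in Prog_b2 1, 2 and 3. It was at 52.1% and 56.7% in large 1 and 2, above Prog_b2 1 and 2 and below Prog_b2 3. In small 1 and 2 it was at 34.9% and 37.2%, below every Prog_b2 tumor. The fits within batch 2 share their estimate of the spread with Prog_b2, of which Prog_b2 3 stood apart. The count of called genes also was 0 with that tumor left out of the small-to-large fit. Relative to the Veh mean of batch 1, the median gene was at 37.0% in small tumors (from 24.45% for Bub1b to 57.2% for Spc25) and 55.0% in large ones (from 40.8% for Bub1b to 74.6% for Mad2l1). All small tumors were above all Res tumors for 38 of the 40 genes, all but Bub1b and Incenp, as they were for 2070 of all 12197 genes (17%). All large tumors were below all Veh tumors for 40 of 40, against 2800 of all genes (23%). Both counts cross the batches, so treatment and batch cannot be told apart in them.

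Whether the gap between residual and resistant tumors differed with the antibody was tested as a difference of within-batch contrasts, small minus large against Res minus Prog, so that a shift common to a batch cancels. It was called for 34 of the 40 genes, all toward a smaller gap in batch 2, the batch with the antibody. In that direction 8.81% of all genes were called. The differences ran from 0.52 ± 0.30 for Incenp to 2.09 ± 0.44 for Top2a (adjusted p = 0.00732), with a median of 1.53. For Ccnb1 the difference was 1.96 ± 0.44 (adjusted p = 0.00931), for Anln 2.01 ± 0.49 (adjusted p = 0.0135) and for Plk1 1.52 ± 0.40 (adjusted p = 0.0189). Not called were Incenp, Bub1b, Cenpf, Kif20a, Kif11 and Mki67. With 2 tumors per antibody group the count rests on single tumors: it was 9 without small 2, 10 without large 1, 22 without small 1 and 23 without large 2. Res and Prog are all in batch 1 and the antibody groups all in batch 2. A difference between batches in the size of the gap therefore cannot be told apart from the antibody. How long each set of tumors had been treated is not given, so the antibody and the time or size at which tumors were taken cannot be told apart. Summed macrophage genes ranged from 1963 to 3909 FPKM in small and from 528 to 1001 in large tumors. Summed fibroblast genes ranged from 2968 to 13053 FPKM in small and from 2519 to 2770 in large tumors. Red cell genes ranged from 40.8 to 61.8 and from 12.5 to 33.96. T cell genes, from 22.7 to 158 and from 3.17 to 25.2, overlapped. So did neutrophil genes, at 49.9 to 66.8 in small and 30.7 to 125 in large tumors. Endothelial genes (94.1 to 110 and 91.6 to 109) and muscle genes (7.76 to 71.9 and 8.79 to 47.4) overlapped as well. The part of these cells was not tested.

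**Figure D4:**
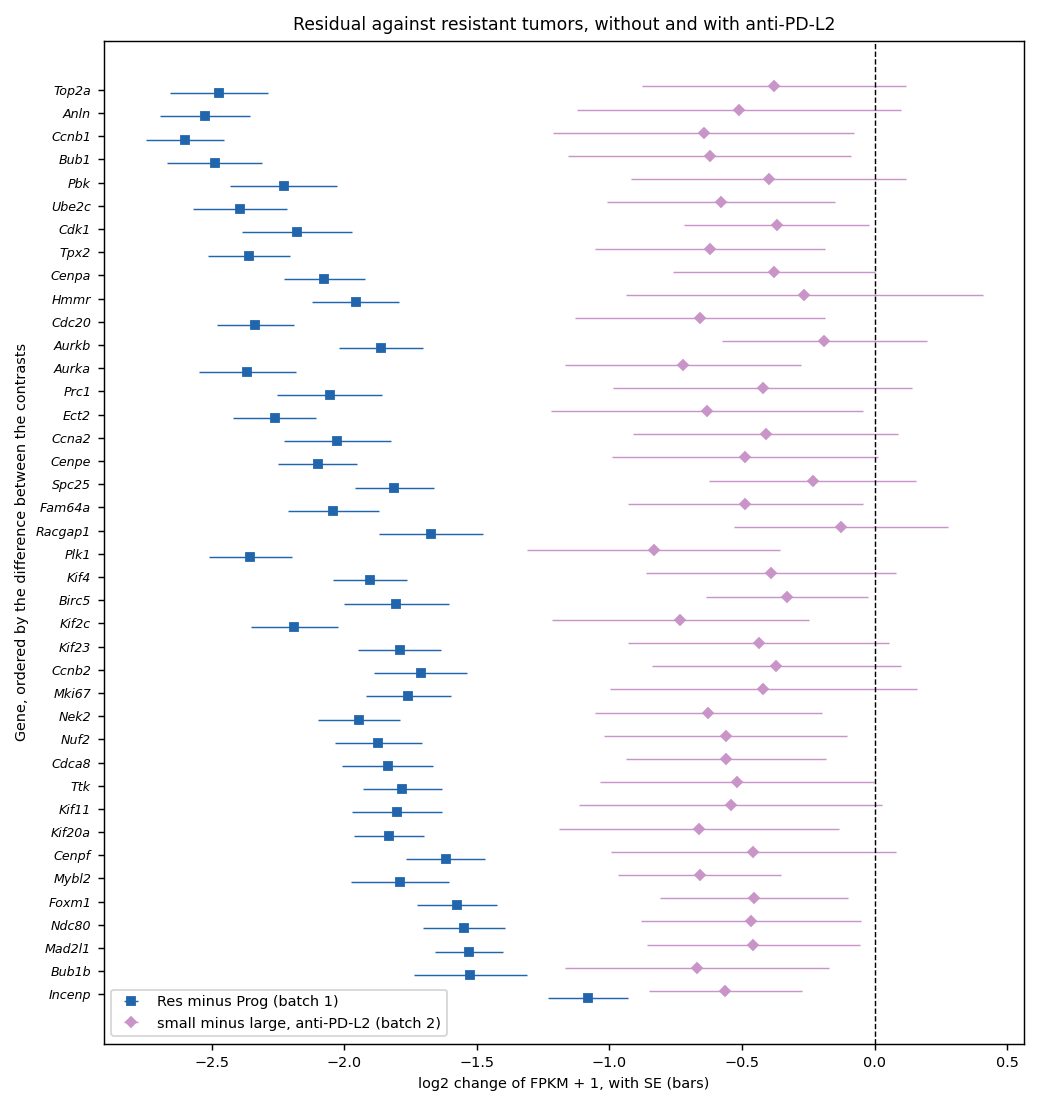
Log2 change of FPKM + 1 of each of the 40 mitosis genes for Res minus Prog (squares) and for small minus large tumors with anti-PD-L2 (diamonds), with bars of 1 SE and genes ordered by the difference. The squares run from -2.60 to -1.08, and the diamonds lie nearer zero with longer bars.

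A wider list of 89 other mitosis genes, chosen by function, was read beside the 40. In Res against Veh, where 25.1% of all genes were called lower and 20.4% higher, 84 of the 89 fell and 1 rose. The median over the 89 was -1.72. The largest falls were in Cdca3, which helps to degrade the mitotic inhibitor Wee1 (-2.68 ± 0.15, adjusted p = 4.26e-09), and in the spindle proteins Fam83d (-2.59 ± 0.23, adjusted p = 2.75e-07) and Knstrn (-2.58 ± 0.15, adjusted p = 5.15e-09). Pttg1, securin, which holds separase inactive until anaphase, was the gene that rose, from 24.9 ± 1.86 FPKM in Veh (SD, n = 4) to 34.4 ± 7.27 in Res (n = 5), by 0.43 ± 0.14 (adjusted p = 0.0217). The smallest changes were in subunits of the anaphase-promoting complex: Anapc13 was at 85.1 ± 9.34 FPKM in Res against 86.2 ± 5.53 in Veh, Anapc10 at 3.96 ± 0.406 against 4.09 ± 0.256, and Anapc2 at 40.6 ± 2.33 against 42.6 ± 1.80, none called. Of the 12 core subunits on the list, these 3 and Anapc11 were not called and the other 8 fell, among them Anapc1 (-0.80 ± 0.15, adjusted p = 4.56e-04), Cdc27 (-0.79 ± 0.13, adjusted p = 1.93e-04) and, the least of the 8, Cdc26 (-0.17 ± 0.065, adjusted p = 0.0444). All 3 were picked after their values were seen.

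In Reg, none of the 89 was called by limma, and 21 had an unadjusted p below 0.05, as had 1364 of all 12210 genes. In Prog, 48 of the 89 fell and 9 rose against Veh, where 21.1% of all genes were called lower and 25.2% higher. The largest falls were in the kinetochore genes Cenpm (-1.54 ± 0.23, adjusted p = 9.24e-05) and Spc24, the partner of Spc25 in the Ndc80 complex (-1.45 ± 0.20, adjusted p = 5.25e-05), and in the spindle protein Nusap1 (-0.99 ± 0.19, adjusted p = 7.23e-04). Zwint, a kinetochore protein, rose the most, from 17.8 ± 1.37 FPKM in Veh to 45.4 ± 9.66 in Prog (1.28 ± 0.19, adjusted p = 1.09e-04). Cdc27, a subunit of the anaphase-promoting complex, rose by 0.65 ± 0.13 (adjusted p = 9.82e-04), and Cdc25a, a phosphatase that activates cyclin-dependent kinases, by 0.64 ± 0.14 (adjusted p = 0.00157). The smallest changes were in Cenpw (0.004 ± 0.15), Mad1l1 (0.0075 ± 0.10) and Plk4 (0.027 ± 0.17), none called. Against Res, 80 of the 89 rose in Prog and 3 fell, Pttg1 among them (-1.07 ± 0.13, adjusted p = 3.75e-06). In that comparison 4879 of all 12210 genes were called higher and 3960 lower.

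DNA replication genes, which are transcribed ahead of the mitosis genes in the cycle, were read from a list of 27. In Res all 27 fell against Veh, with a median of -1.71, and in Prog 19 fell, with a median of -0.48. Of all genes, 25.1% were called lower in Res and 21.1% in Prog. Mcm6, a subunit of the replicative helicase, was at 60.1 ± 6.89 FPKM in Veh, 12.1 ± 1.66 in Res and 41.3 ± 4.49 in Prog, and Pcna, the sliding clamp of the polymerases, at 183 ± 39.5, 71.8 ± 3.45 and 149 ± 25.8. The mean log2(FPKM + 1) of the 40 mitosis genes minus that of the 27 replication genes was between 0.18 and 0.33 in the Veh tumors, between 0.14 and 0.24 in Reg and between 0.06 and 0.35 in Prog. It was between -0.70 and -0.22 in Res, below every other tumor, with Res 1 at the upper end. The small tumors were at -0.12 and 0.14, the large ones between 0.15 and 0.19, and Prog_b2 at 0.18, 0.19 and 0.65, the last in Prog_b2 3. This difference of list means is given as a description, without a test.

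**Figure D5:**
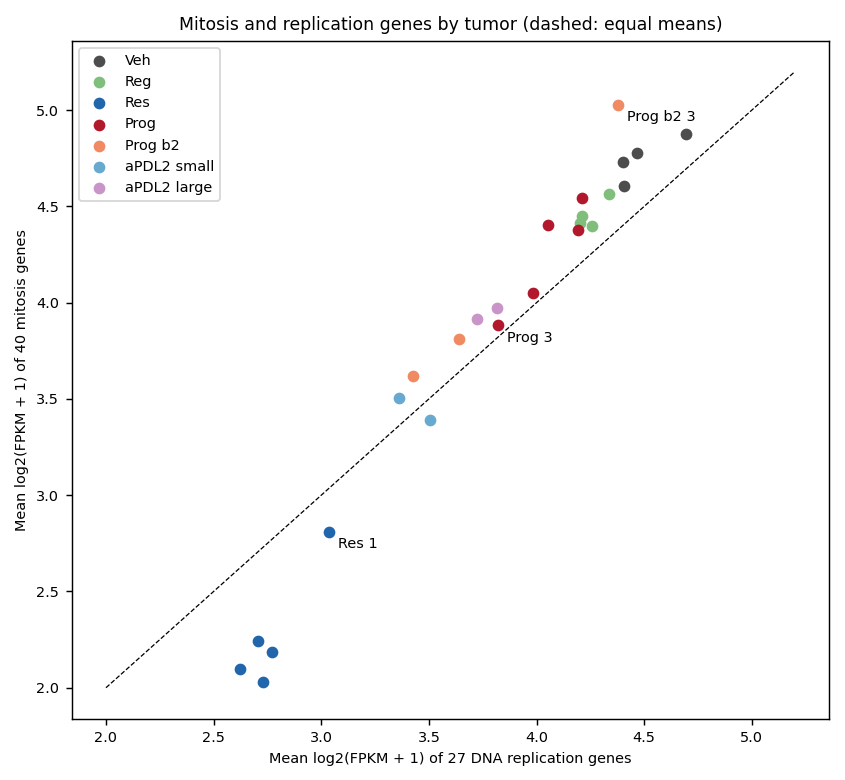
Mean log2(FPKM + 1) of the 40 mitosis genes (vertical) against that of 27 DNA replication genes (horizontal), 1 point per tumor coloured by group, with a dashed line where both means are equal. The 5 Res tumors lie at the lower left below the line, and Prog_b2 3 lies farthest above it.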

How the data were processed

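Poly(A) RNA of 25 tumors in 7 groups was sequenced from unstranded TruSeq libraries, per the labels' protocols. The values are FPKM that the authors deposited in 1 table of 23940 gene symbols; per the submitters' processing notes TopHat or TopHat2, Cuffnorm and Cuffdiff were used with the mm9 genome, and the notes give no versions or roles. Groups were taken from the sample titles. Here, log2(FPKM + 1) was fitted with limma 3.58.1 (R 4.3.3; group terms, variance trend, two-sided) for genes with a mean of at least 1 FPKM over a fit's libraries, with Benjamini-Hochberg adjustment over all of them. Contrasts within batch 1 used its 18 libraries, those within batch 2 its 7, and those across batches all 25. The comparison of contrasts across batches was 1 term of that fit. The 40 genes, the lists and the tests were chosen with earlier results of these data known. Named genes followed a rule: single-tumor values for 14 genes spread over the roles and for genes that differ from most, and of the wider list the 3 largest falls, the 3 largest rises and the 3 smallest changes in Res and in Prog. Promoter sequences came from RefSeq on GRCm38.p6; the coordinates are of that build and not of mm9, and 8 genes had no match. Alternatives were a pseudocount of 0.1, no filter, median-of-ratios size factors, a replicate block, library weights, other library sets, a term for columns that look averaged, and single tumors left out. Fits with Res 1 alone as the residual group, and with Prog_b2 3 out of the small-to-large comparison, were added after seeing the data. Every comparison but the difference of contrasts was checked on simulated data with 200 changed genes and independent noise. The outcome of that check is not given here. Tables were read and plots were made in Python 3.11.15 (matplotlib 3.10.9, numpy 2.4.6, pandas 2.3.3).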

Additional observations from a re-analysis of the deposited data

Results flagged for a closer look

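Single tumors stood apart from the rest of their group in 15 of 160 sets of 1 gene in 1 group of 4 or 5 tumors (9.38%), by the gap to the nearest tumor over the group's range. The cutoff is set for about 1 in 20 independent sets. The 160 sets share tumors, and their genes moved together, so the share flagged cannot be set against that rate. Res 1 was the high tumor in 8 of the 15 sets: 9.81 FPKM for Ccnb2, 13.1 for Ccna2, 5.64 for Aurka, 3.20 for Nek2, 10.1 for Bub1b, 6.29 for Tpx2, 7.66 for Kif20a and 6.82 for Mki67. Veh 1 was the low tumor for Birc5 (50.5 FPKM), Nuf2 (16.7) and Foxm1 (17.8), and Veh 4 the high one for Mybl2 (13.8). In Reg, Cdk1 was high in Reg 4 at 67.2 FPKM and Nuf2 in Reg 2 at 18.2. Ect2 was high in Prog 1 at 17.1 FPKM. Groups of 3 or fewer tumors, and so Prog_b2 3, were outside this test.

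The gap between residual and resistant tumors differed between the batch without and the batch with anti-PD-L2 for 34 of the 40 genes by limma's test of the difference. Among the called genes whose values are given by tumor, the log2 differences were 2.09 for Top2a, 2.01 for Anln, 1.96 for Ccnb1, 1.81 for both Cdk1 and Ube2c, 1.69 for Hmmr, 1.68 for Cdc20, 1.67 for Aurkb, 1.61 for Cenpe, 1.52 for Plk1, 1.34 for Ccnb2, 1.13 for Mybl2 and 1.12 for Foxm1. The differences of Incenp (0.52), Bub1b (0.86), Kif11 (1.26) and Mki67 (1.34), also given by tumor, were not called (limma adjusted p from 0.0538 to 0.239).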

How the results depend on the processing

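All 40 genes stayed called in Res against Veh under every alternative listed in the processing summary, and likewise in Res against Reg and Prog against Res, except with Res 1 as the lone residual tumor. With that 1 tumor, which was picked after seeing the data, 39 were called in each of the latter, with Incenp in Res against Reg (limma adjusted p = 0.0689) and Bub1b in Prog against Res (adjusted p = 0.0772) not called. The count of 0 in Reg against Veh, and in the 3 comparisons within batch 2, was 0 under all alternatives. In Prog against Veh the count of 25 was 14 with all libraries in 1 fit, and from 16 (without Veh 4, and also without Prog 3) to 28 (without Prog 1) with single tumors left out. In Prog against Reg the count of 2 was 1 with a pseudocount of 0.1, without a filter, with size factors, with the replicate block and with all libraries in 1 fit, 18 with library weights, and from 1 to 7 (without Prog 1) with single tumors left out. In Prog_b2 against Prog the count was from 0 to 18 (without Prog_b2 3), and Hmmr went from -0.65 without Prog_b2 3 to 0.40 without Prog_b2 2. In Prog_b2 against Veh the count of 10 was 5 without a filter, with size factors or with the replicate block, 6 without the tumors with high keratin, 2 with a term for averaged columns, 0 with the compared groups alone, and from 1 (without Prog_b2 1 or 2) to 38 (without Prog_b2 3) with single tumors left out; it was 4 without Veh 2 or Veh 4 and 5 without Veh 1 or Veh 3. The difference between the contrasts, called for 34 genes, was called for 9 (without small 2) to 38 (without Res 1) with single tumors left out. The causes were not tested. Most counts of the 40 under alternatives, here and above, stand without the share of all genes called in the same fit. Calls over all genes also moved with the setting. In Res against Veh, 5560 genes were called in either direction in the main fit and 7124 with library weights. In Reg against Veh the calls were 2 and 31. Whether equal replicate numbers paired tumors was read from the correlation of their deviations. In batch 1 it was from -0.52 to 0.38 (median 0.015) in 25 pairs of equal number. In 96 other pairs of batch 1 it was from -0.52 to 0.57 (median -0.0041). In 6 pairs of batch 2 it was from -0.23 to 0.12. Groups of 2 tumors deviate from their mean in mirror image, so the values of batch 2 cannot show pairing. With the replicate block, 22 genes were called in Prog against Veh and 24 in the difference between the contrasts. Size factors lay between 0.954 and 1.04. Depth is unknown, and the 2 tumors in each antibody group limit every statement on them.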
